A study of Mus musculus with 24 samples.

Results

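The genes described here are 10 components of the NF-κB and STAT3 pathways, Nfkbia, Nfkbiz, Tnfaip2, Tnfaip3, Relb, Icam1, Il1r1, Il6ra, Stat3 and Socs3, taken by symbol from the 24411 genes counted in 24 mouse liver libraries. They comprise cytokine receptors, signal transducers, feedback inhibitors and target genes, and all 10 passed the filter on low counts in each comparison. All mice were male, 2.5 months old and fasted overnight before sampling at 0 h or before acetaminophen (APAP), a drug that injures the liver in overdose. Livers of 4 control and 4 LKO mice were sequenced singly at 0 h, without APAP, and 1 pool of 3 livers per genotype was sequenced at 12, 24, 48, 72 and 96 h after 300 mg/kg APAP. LKO mice carry floxed E2f7 and E2f8, which encode repressors of the cell cycle, an mTmG reporter allele and an Alb-Cre transgene, which is active in the liver lineage lifelong, whereas the control littermates lack Cre. HKO mice (n = 3) carry the same floxed genes and received AAV8-TBG-Cre at 2 months, a virus whose promoter is active in hepatocytes, so that deletion occurs in the adult, and their controls (n = 3) received AAV8-TBG-Null, with all 6 livers taken at 0 h.

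NF-κB is a family of dimeric transcription factors, RELB among them, held in the cytoplasm by inhibitors such as IκBα, the product of Nfkbia. Interleukin 1, tumor necrosis factor and microbial products release it, and it then induces its own inhibitors, IκBα and the ubiquitin-editing enzyme A20, encoded by Tnfaip3. STAT3 is activated by interleukin 6 through its receptor chain IL6RA and the shared chain gp130, drives the acute-phase response of hepatocytes and induces SOCS3, which shuts off the receptor.

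The 10 genes lie on chromosomes 1, 3, 7, 9, 10, 11, 12 and 16, with Stat3 and Socs3 on 11 and Nfkbia and Tnfaip2 on 12 (GENCODE vM21, GRCm38). The bases just before the transcription start are shown for 4 genes with a match to a motif of either pathway, to show where the matches lie. Of the 4, Tnfaip3, Icam1 and Socs3 rose at 12 h, as did Stat3, which had no match. Il1r1, whose match lay at a second start site, and Nfkbiz, for which no window was found, rose as well. The sequences were taken from RefSeq on GRCm38.p6, read 5′ to 3′ on the strand of the gene and end at the base before the start site, with matches in capitals. The κB consensus was searched on both strands, and the palindrome TTCNNNGAA stands for the STAT motif.
Nfkbia, chr12:55492648-55492897, minus strand, κB match at -29 to -20: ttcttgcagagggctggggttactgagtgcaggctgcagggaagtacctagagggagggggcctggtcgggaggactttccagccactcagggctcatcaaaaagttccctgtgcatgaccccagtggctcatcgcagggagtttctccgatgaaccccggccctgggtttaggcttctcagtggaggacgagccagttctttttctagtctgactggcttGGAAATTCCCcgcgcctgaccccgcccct
Tnfaip3, chr10:19015411-19015660, minus strand, κB matches at -125 to -116 and -12 to -3: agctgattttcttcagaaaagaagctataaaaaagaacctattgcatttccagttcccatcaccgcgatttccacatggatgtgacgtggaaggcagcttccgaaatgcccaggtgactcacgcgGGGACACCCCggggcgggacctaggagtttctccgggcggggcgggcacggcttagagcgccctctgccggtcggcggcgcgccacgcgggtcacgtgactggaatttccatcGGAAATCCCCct
Icam1, chr9:21015690-21015939, plus strand, STAT match at -42 to -34: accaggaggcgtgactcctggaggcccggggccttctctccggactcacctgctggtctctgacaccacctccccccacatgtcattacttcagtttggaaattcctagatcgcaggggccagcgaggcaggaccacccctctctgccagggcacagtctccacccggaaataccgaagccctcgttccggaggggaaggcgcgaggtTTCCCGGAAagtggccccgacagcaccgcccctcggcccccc
Socs3, chr11:117969367-117969616, minus strand, STAT match at -154 to -146: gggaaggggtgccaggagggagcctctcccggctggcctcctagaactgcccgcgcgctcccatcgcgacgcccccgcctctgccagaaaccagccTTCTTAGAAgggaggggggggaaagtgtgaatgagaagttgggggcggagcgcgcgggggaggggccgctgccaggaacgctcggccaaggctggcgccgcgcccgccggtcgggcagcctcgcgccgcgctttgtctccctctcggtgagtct
Of 32851 promoter windows of 300 bases, 4.51% held a κB consensus match and 8.3% held TTCNNNGAA. RefSeq windows were found for 8 of the 10 genes, all but Nfkbiz and Relb. A second start site of Il1r1 had a κB match at -232 to -223, no window of Tnfaip2, Il6ra or Stat3 had a match to either motif, and no member had a match to the E2F motif (TTTGGCGC or TTTCCCGC, 1.56% of windows). These matches are descriptions of sequence and were not tested for binding.

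Libraries held 12665686 to 19499897 reads on genes (median 16500386), so that 3 counts stand for 0.154 to 0.237 CPM (counts scaled to the library total). Levels below are CPM after TMM scaling, which was done within each cohort. Hepatocyte markers (6 of 6) were present in every library. The floxed gene E2f8 had more, not fewer, reads in the knockout libraries, by 1.53 ± 0.21 (log2, SE) in the LKO pools (edgeR's quasi-likelihood test with Benjamini-Hochberg adjustment, adjusted p = 0.0237), by 0.63 ± 0.22 in LKO mice at 0 h (adjusted p = 0.999) and by 1.498 ± 0.335 in HKO mice (adjusted p = 0.0773). A count over the whole gene includes exons that remain after deletion and does not check the genotype, so every direction below follows the label of the library.

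At 0 h, the levels of the 10 genes spanned a wide range in the 8 mice of the LKO cohort. Per length, in RPKM (the CPM level per kilobase of exon), Nfkbia was highest with a mean level of 38.1 ± 6.28 (SD, n = 8), followed by Il1r1 (19.3 ± 10.8), which encodes the signaling receptor of interleukin 1, Stat3 (14.5 ± 4.23) and Socs3 (10.4 ± 5.37). Il6ra stood at 6.38 ± 2.67 RPKM. Icam1 (2.55 ± 0.411), an adhesion molecule for leukocytes, Nfkbiz (2.38 ± 0.716), a nuclear IκB protein, and Tnfaip2 (2.30 ± 0.987), a cytokine-induced protein of the exocyst family, were close together. Relb (0.580 ± 0.182) and Tnfaip3 (0.439 ± 0.0893) were lowest. The ranges of neighbors in this order overlapped, with the exception of Tnfaip2 and Relb, whose ranges were apart.

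The genes also differed in how much single mice varied before APAP. Within genotype, the SD between mice on the log2 scale was 0.87 for Il1r1, 0.73 for Il6ra and 0.72 for Socs3, and 0.25 to 0.41 for the other 7 genes. The highest of the 8 mice, both genotypes together, exceeded the lowest 5.18-fold for Socs3, 4.69-fold for Il1r1 and 3.64-fold for Il6ra. The corresponding ratio was 1.49 for Icam1, 1.75 for Nfkbia and 1.77 for Tnfaip3. Over the 10 pools after APAP, Socs3 again had the widest range (23.6-fold), followed by Nfkbiz (7.74-fold), Il1r1 (5.91-fold) and Relb (5.47-fold), and Nfkbia the narrowest (1.48-fold).

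To describe the changes after APAP, the control and LKO pools of each time were compared together with the 8 mice at 0 h, with genotype as a covariate. A gene was called when its adjusted p-value from edgeR's quasi-likelihood test with Benjamini-Hochberg adjustment over 13328 genes was under 0.05 and its fold change at least 1.5. The 5 time comparisons share the same mice at 0 h and are not independent. No mice without APAP were sequenced at 12 to 96 h, and single fasted mice are set against pools. Effects of APAP therefore cannot be told apart from those of time after the fast or of pooling. At 12 h, 6 of the 10 genes rose and none fell, at a median change of 1.16 (log2) against -0.0037 over all genes, while 31.5% of all genes were called, with 17% of all genes higher. At 24 h, 3 rose and 1 fell, where 26.1% of all genes were called (14.1% higher and 12.1% lower). At 48 h, 3 rose (16.7% called, 10% higher), and at 72 h, 2 rose (16.8% called, 11% higher). The share of all genes called was thus high at each of these times, and the members are described below by their own values. At 96 h, none of the 10 was called by edgeR (0.465% of all genes), 2 (Tnfaip2 and Il6ra) had an unadjusted p-value under 0.05 against 15.8% of all genes, and DESeq2 called 1, Tnfaip2.

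**Figure D1:**
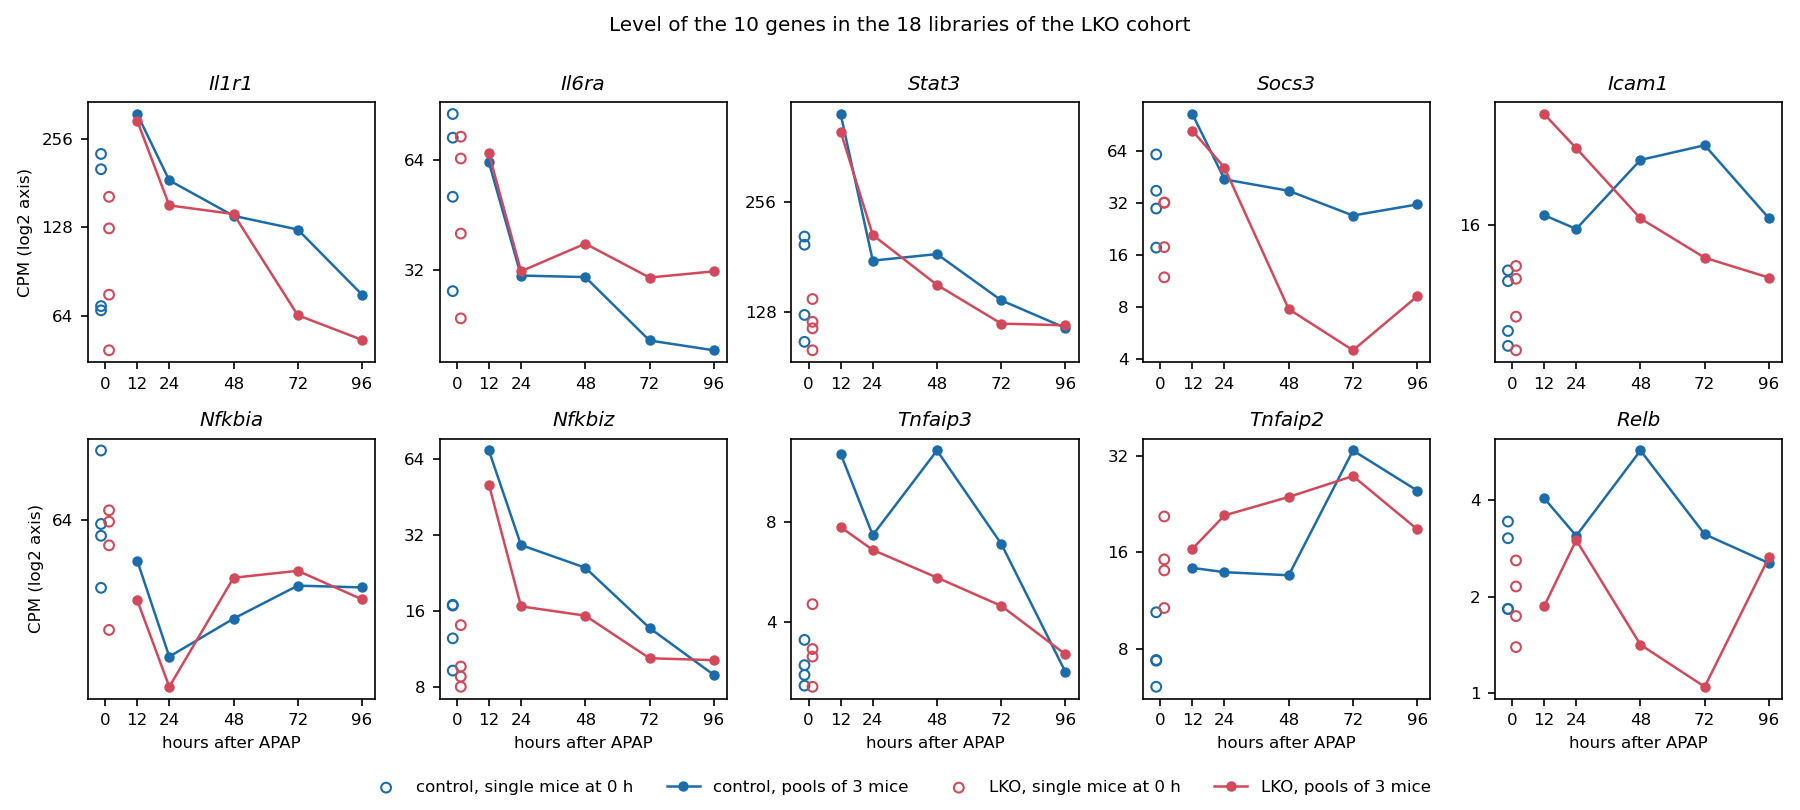
Level of each gene in CPM (log2 axis, with its own range in each panel) against hours after APAP. Open circles are single mice at 0 h (4 control, 4 LKO) and filled points joined by lines are pools of 3 livers. Nfkbiz, Stat3, Socs3 and Il1r1 peaked at 12 h in both genotypes, and Socs3 in the LKO pools then dropped to 4.47 CPM at 72 h.

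Among the receptors, Il1r1 rose early and Il6ra did not. In the control mice at 0 h, Il1r1 was at 66.7, 202, 228 and 68.9 CPM, and in the LKO mice at 163, 127, 75.4 and 48.7 CPM. The control pools held 312, 185, 140.3, 126 and 75.4 CPM at 12, 24, 48, 72 and 96 h, and the LKO pools 296, 152, 142, 64.2 and 52.9 CPM. Both pools at 12 h lay above all 8 mice, and all later pools lay within their range. Il1r1 rose by 1.34 ± 0.40 (log2, SE) at 12 h (edgeR, adjusted p = 0.0156), a 2.53-fold increase. At the later times its changes ran from 0.47 at 24 h to -0.94 at 96 h and none was called.

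Il6ra, the receptor chain that binds interleukin 6, was at 28.0, 85.8, 50.8 and 73.8 CPM in control mice and at 74.3, 64.7, 40.2 and 23.5 CPM in LKO mice. Its control pools read 63.2, 30.9, 30.6, 20.5 and 19.2 CPM from 12 to 96 h, and its LKO pools 66.8, 31.7, 37.8, 30.5 and 31.7 CPM. The control pools at 72 and 96 h were thus below every mouse at 0 h, and the LKO pools stayed within the range of the mice. The changes of -1.12 ± 0.41 at 72 h (edgeR, adjusted p = 0.0667) and -1.12 ± 0.41 at 96 h (adjusted p = 0.203) were not called, although DESeq2 called Il6ra at 72 h (adjusted p = 0.0218), as did edgeR without control mouse 1 (-1.21, adjusted p = 0.0413) or LKO mouse 4 (-1.26, adjusted p = 0.0191). Without LKO mouse 4, Il6ra was also called lower at 24 h (-0.95, adjusted p = 0.0451).

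Stat3, the transducer of the interleukin 6 signal, had a single early peak. It was at 106, 206, 195 and 125 CPM in control mice and at 139, 115, 120.1 and 100.3 CPM in LKO mice. At 12 h the pools reached 446 (control) and 400 (LKO) CPM, above all mice. At 24 h they held 177 (control) and 208 (LKO) CPM, the latter just above the highest mouse at 206 CPM, and from 48 to 96 h they ranged from 116 to 184 CPM, inside the range of the mice. Stat3 rose by 1.62 ± 0.20 at 12 h (edgeR, adjusted p = 3.165e-05), a 3.08-fold increase, and the change of 0.50 ± 0.22 at 24 h was not called (adjusted p = 0.0927), although it was with scaling by library size alone (0.64, adjusted p = 0.0343).

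Relb, the NF-κB subunit of the noncanonical pathway, is transcribed at a low level. Control mice held 1.83, 3.43, 1.83 and 3.05 CPM and LKO mice 1.39, 2.59, 2.15 and 1.74 CPM. Control pools read 4.06, 3.10, 5.72, 3.13 and 2.55 CPM from 12 to 96 h and LKO pools 1.87, 3.01, 1.42, 1.05 and 2.65 CPM. The highest value was the control pool at 48 h (112 counts) and the lowest the LKO pool at 72 h (22 counts), and the pools of both genotypes were close at 24 and 96 h. No change over both genotypes was called at any time (adjusted p = 0.384 to 0.811).

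The feedback inhibitors of NF-κB followed different courses. Nfkbia was at 61.0, 63.3, 51.8 and 79.7 CPM in control mice and at 59.2, 45.4, 66.1 and 63.8 CPM in LKO mice. It decreased to 41.8 (control) and 38.0 (LKO) CPM at 24 h, the only time at which both pools lay below all 8 mice, and ranged from 47.1 to 56.5 CPM in the other 8 pools. Nfkbia fell by 0.62 on the log2 scale (SE 0.18) at 24 h (edgeR, adjusted p = 0.0147). This call was lost with scaling by library size alone (-0.48) and without control mouse 4 (-0.56), both under the fold limit, and without either pool at 24 h (adjusted p = 0.108 and 0.162). Its count also holds a strand ambiguity, since the stranded columns together exceeded the unstranded count by 20.2% to 32.8%, a difference that was at most 0.787% for the other 9 genes.

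Nfkbiz, which encodes the nuclear protein IκBζ, had the largest rise of the 10 genes. It was at 9.26, 16.9, 16.8 and 12.4 CPM in control mice and at 8.77, 9.61, 14.0 and 7.99 CPM in LKO mice. Control pools held 68.9, 29.1, 23.7, 13.7 and 8.91 CPM and LKO pools 50.5, 16.6, 15.3, 10.4 and 10.2 CPM. The control pools lay above all mice up to 48 h, the LKO pool was above them only at 12 h, and both were back among the mice at 72 h. Nfkbiz rose by 2.32 ± 0.21 at 12 h (edgeR, adjusted p = 1.615e-06), a 5.00-fold increase, by 0.91 ± 0.23 at 24 h (adjusted p = 0.00698) and by 0.69 ± 0.23 at 48 h (adjusted p = 0.0459). The call at 48 h was close to the threshold and was lost in 13 of 25 alternatives.

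Tnfaip3, encoding the A20 inhibitor, remained high for longer. It was at 2.77, 2.57, 2.97 and 3.53 CPM in control mice and at 4.52, 3.15, 3.32 and 2.55 CPM in LKO mice. Control pools read 12.8, 7.29, 13.1, 6.87 and 2.83 CPM and LKO pools 7.70, 6.58, 5.43, 4.47 and 3.20 CPM. All pools from 12 to 48 h were above all mice, with a second high value in the control pool at 48 h that the LKO pool did not show. Tnfaip3 rose by 1.66 ± 0.28 at 12 h (edgeR, adjusted p = 0.000319), by 1.12 ± 0.28 at 24 h (adjusted p = 0.00786) and by 1.49 ± 0.28 at 48 h (adjusted p = 0.00165), and its change of 0.80 ± 0.29 at 72 h was not called (adjusted p = 0.0634), although DESeq2 called it (0.83, adjusted p = 0.0462), as did edgeR in 3 omissions of single libraries. Without the control pool at 48 h, the change at that time was 0.82 ± 0.35 (adjusted p = 0.211).

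Socs3, the inhibitor of the interleukin 6 receptor complex, had the widest range of the 10 genes over the pools. It was at 29.8, 61.4, 37.8 and 17.7 CPM in control mice and at 32.3, 32.2, 11.9 and 17.8 CPM in LKO mice. Control pools held 106, 44.0, 37.8, 27.1 and 31.5 CPM from 12 to 96 h, and LKO pools held 84.4, 51.5, 7.76, 4.47 and 9.21 CPM. Both pools at 12 h were above all mice, control pools then lay within the range of the mice, and the LKO pools at 48, 72 and 96 h lay below all 8 mice. Socs3 rose by 1.71 ± 0.45 at 12 h (edgeR, adjusted p = 0.00789), a 3.28-fold increase. The later changes over both genotypes, from 0.81 at 24 h to -1.20 at 72 h, were not called (adjusted p = 0.147 to 0.526), and the change at 24 h ranged from -0.0039 to 1.37 when single libraries were left out.

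The target genes Icam1 and Tnfaip2 responded late or for long. Icam1 was at 9.73, 12.9, 12.3 and 9.08 CPM in control mice and at 13.2, 8.89, 10.4 and 12.4 CPM in LKO mice. Control pools read 16.8, 15.7, 21.8, 23.3 and 16.5 CPM and LKO pools 27.0, 23.0, 16.5, 13.7 and 12.5 CPM. All pools except the LKO pool at 96 h lay above all mice, with the maximum at 12 h in LKO and at 72 h in control. Icam1 rose by 0.98 ± 0.23 at 12 h (edgeR, adjusted p = 0.00434), 0.80 ± 0.24 at 24 h (adjusted p = 0.0178), 0.78 ± 0.24 at 48 h (adjusted p = 0.0302) and 0.73 ± 0.24 at 72 h (adjusted p = 0.0415). It was the only member called at each of these 4 times, but each call was lost in some alternatives. At 24 h it was lost with the first stranded column (0.60, adjusted p = 0.110) and without the LKO pool (0.46, adjusted p = 0.394). At 48 h it was lost without the control pool (0.56) or without control mouse 1 or 4. At 72 h it was lost with the stranded column (0.76, adjusted p = 0.0646) and in 5 omissions of single libraries, with 0.28 left without the control pool.

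Tnfaip2 was at 10.4, 6.08, 7.33 and 7.37 CPM in control mice and at 20.7, 14.0, 15.2 and 10.7 CPM in LKO mice. Control pools read 14.3, 13.8, 13.5, 33.2 and 24.9 CPM and LKO pools 16.4, 20.8, 23.8, 27.6 and 18.9 CPM. All control pools lay above all control mice, and both genotypes were highest at 72 h. The changes of 0.62 ± 0.29 at 24 h (edgeR, adjusted p = 0.114) and 0.71 ± 0.28 at 48 h (adjusted p = 0.0917) were not called. They were called in 1 and 2 of 25 alternatives, respectively. Tnfaip2 rose by 1.505 ± 0.274 at 72 h (edgeR, adjusted p = 0.00102), a 2.84-fold increase, and the change of 1.04 ± 0.28 at 96 h was not called (adjusted p = 0.100). Without the control pool at 72 h, the change at that time was 1.03 ± 0.36 (adjusted p = 0.165).

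**Figure D2:**
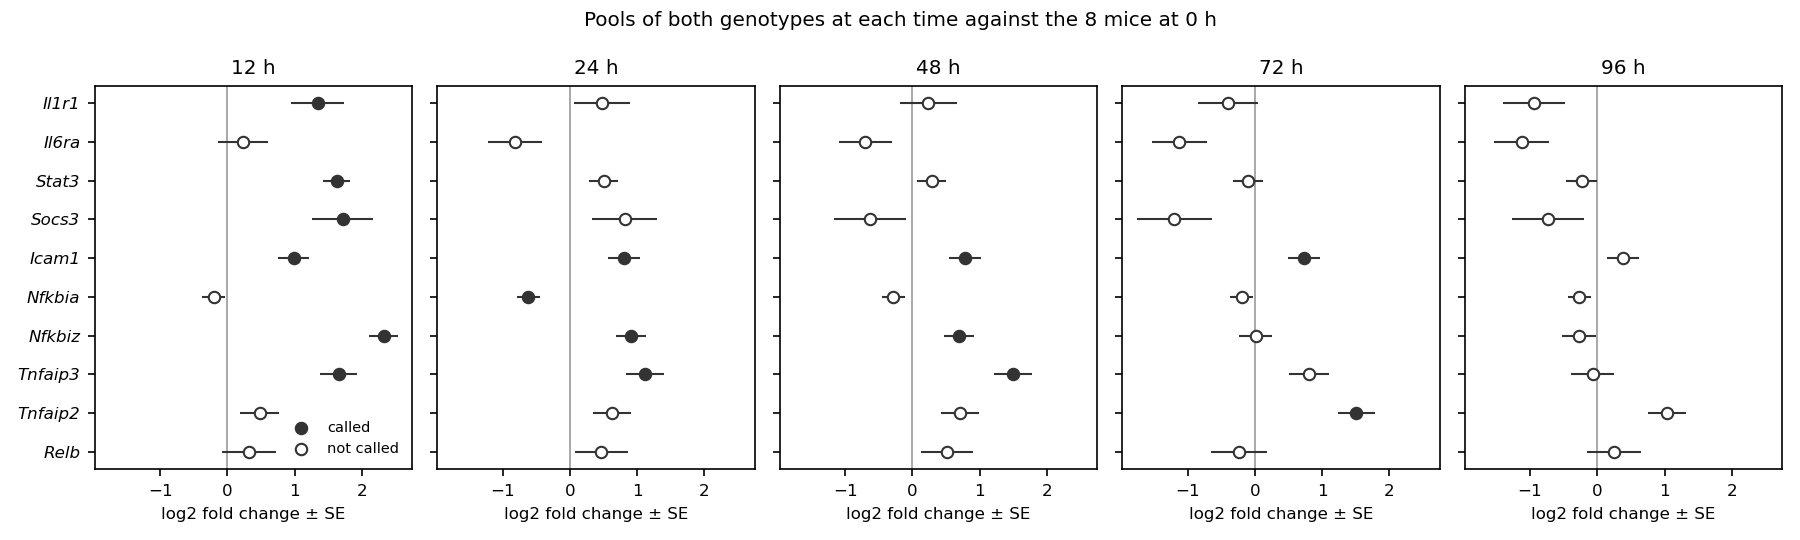
Change of each gene from the 8 mice at 0 h to the control and LKO pools of 1 time, as log2 fold change (x axis), with bars of 1 SE. Filled points were called and open points were not. From left to right the panels hold 6, 4, 3, 2 and 0 filled points, and the single filled point left of zero is Nfkbia at 24 h.

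These calls rest on few pools. Without the LKO pool at 12 h, 3 of the 6 calls at that time remained, and those lost were Icam1 (0.52, adjusted p = 0.211), Il1r1 (1.14, adjusted p = 0.140) and Socs3 (1.28, adjusted p = 0.1496). Il1r1 was also lost without the control pool at 12 h (1.51, adjusted p = 0.0716). Without either pool at 24 h 1 call remained at that time, and without the control pool at 48 h or that at 72 h none remained at the respective time.

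Counted against the single mice, 7 of the 10 genes in the control pool at 12 h lay above all 8 mice (32.1% of all genes did) and 6 in the LKO pool (27.5%). The corresponding numbers were 3 (28.3%) and 4 (25.9%) at 24 h, 4 (28.2%) and 3 (21.6%) at 48 h, 3 (27.7%) and 2 (20.9%) at 72 h, and 2 (21.1%) and 0 (15.5%) at 96 h. The members' share exceeded that of all genes by most at 12 h, in both genotypes. The members were chosen with earlier results of these data known, so this excess is a description.

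Markers of other cell types moved over the same times. In whole liver, more cells of a type and more RNA per cell cannot be told apart. The summed level of 8 Kupffer cell and macrophage markers was 137 to 345 CPM in the mice at 0 h, 127 to 148 CPM in the 4 pools at 12 and 24 h, and 596 (control) and 601 (LKO) CPM at 72 h, the time of the Tnfaip2 maximum. The 6 stellate cell and fibroblast markers summed to 122 to 235 CPM in the mice and to 568 (control) and 523 (LKO) CPM at 72 h, with 5 of 6 called higher. The 6 neutrophil markers present summed to 2.48 to 12.2 CPM in the mice, with up to 2 of them at 0, and to 16.8 (control) and 17.4 (LKO) CPM at 12 h. Of 5 tested, 3 were called higher at 12 and at 24 h, 2 at 48 h and 1 at 72 h, and none lower. Only 2 passed the filter on low counts in the LKO comparison at 0 h. The 6 sinusoidal endothelial markers summed to 155 to 257 CPM throughout the cohort, but single markers moved in opposite directions, with 2 higher and 1 lower at 12 h, 1 higher and 2 lower at 24 and at 48 h, and 2 lower at 72 h. Of the 8 macrophage markers, 1 was called higher and 1 lower at 12 h, 2 higher and 3 lower at 24 h, and 3 higher and none lower at 72 h. Hepatocyte markers also moved at 24 h, the time of the Nfkbia decrease, with 1 of 6 called higher and 2 lower (median change -0.57), and 1 was called lower at each of 12, 48 and 72 h. The part of these cells in the changes of the members was not tested.

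The other genes of the pathways were counted over whole lists, chosen with earlier results of these data known. The counts are thus descriptions and no test of enrichment. Each count below stands against 17%, 14.1%, 10% and 11% of all genes called higher at 12, 24, 48 and 72 h. In either direction, 31.5%, 26.1%, 16.7% and 16.8% of all genes were called at these times. At 12 h, of 14 NF-κB subunits, IκB proteins and kinases, 7 rose and 1 fell. The NF-κB-inducing kinase Map3k14 rose by 2.11 ± 0.20 (edgeR, adjusted p = 2.457e-06), the subunit gene Rel by 1.73 ± 0.37 and the atypical IκB gene Bcl3 by 1.63 ± 0.31, whereas the kinase gene Ikbke fell by 1.15. Map3k14 also was, of 13318 genes that are not members, the one whose changes over the 10 pools were nearest to those of Nfkbiz (root-mean-square difference 0.30 in log2). By 24 h only Map3k14 of this list was called (0.97 ± 0.21), none was called at 48 h, and at 72 h Rela alone was called, as lower (-0.63 ± 0.17).

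Of 18 tested genes of the TNF and interleukin 1 arm, 6 rose and 1 fell at 12 h. The decoy receptor gene Il1r2 (4.37 ± 0.79), the inhibitory kinase gene Irak3 (1.52 ± 0.44), the receptor antagonist gene Il1rn (1.48 ± 0.34) and the TNF receptor gene Tnfrsf1a (1.43 ± 0.16) changed most among the genes called. Il1r2, Irak3 and Il1rn encode inhibitors of interleukin 1 signaling. Il1r2 had at most 4 counts in any mouse at 0 h, so the size of its change is uncertain. At 24 h, 4 genes of this arm rose and 1 fell, at 48 h 3 rose, and at 72 h 4 rose, among them Tlr4 (1.46 ± 0.31) and Tlr2 (1.36 ± 0.33), which encode receptors for microbial products.

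The 12 tested genes of the interleukin 6 and STAT arm moved in both directions, with 2 higher and 3 lower at 12 and at 24 h, 2 higher and 2 lower at 48 h, and 1 higher and 1 lower at 72 h. At 12 h, the oncostatin M receptor gene Osmr rose by 1.5 ± 0.27 and Il6st, which encodes gp130, by 0.74 ± 0.15, whereas the receptor gene Lifr fell by 1.79. The cytokine gene Lif, with at most 4 counts in any mouse at 0 h, was called higher at 24 h (4.82 ± 0.85), 48 h (4.93 ± 0.85) and 72 h (4.10 ± 0.90). Stat5b was called lower at each of the 4 times from 12 to 72 h and fell by 1.22 at 24 h.

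Of 11 other tested feedback inhibitors, 4 rose at 12 h. Tnip2 (1.48 ± 0.24) and Tnip1 (0.80 ± 0.26) encode partners of A20, and Ptpn11 (0.79 ± 0.17) encodes the phosphatase SHP2. Socs1 was called higher (1.84 ± 0.62, adjusted p = 0.0301) from 77 counts in the control pool against 5 in the LKO pool, so this call rests on 1 genotype. At 24 h Tnip2 alone of this list was called (0.79 ± 0.25). At 48 h Tnip1 was called higher (0.86 ± 0.26) and Cish, a STAT5-induced inhibitor, lower (-3.02 ± 1.02).

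Target genes beyond the 10 members were counted last. Of 12 STAT3 target genes, 8 rose and none fell at 12 h, 5 rose at 24 h, 2 at 48 h and 2 at 72 h, with a median change of 1.22 at 12 h. Lcn2, which encodes an iron-sequestering acute-phase protein, rose by 4.54 ± 0.82 at 12 h, Myc by 3.11 ± 0.40, and the interleukin 4 receptor gene Il4ra by 1.62 ± 0.21. Bcl3 (1.63 ± 0.31) is on this list and on that of NF-κB subunits, IκB proteins and kinases, so its rise is counted in both. Of 9 tested NF-κB target genes, 1 rose at 12 h, Gadd45b (3.45 ± 0.44), a stress-induced gene, a share below the 17% of all genes called higher. At 24 and 48 h, the protease gene Plau (2.00 ± 0.65 and 3.52 ± 0.58) and Gadd45b (1.71 ± 0.47 and 1.42 ± 0.48) rose and Cflar, which encodes an inhibitor of caspase 8, fell by 0.65 and 0.68. At 72 h, 3 rose, namely Plau (3.59 ± 0.59), the survival gene Bcl2a1b (3.20 ± 0.44) and the adhesion gene Vcam1 (1.79 ± 0.36). Plau and Bcl2a1b did not pass the filter on low counts in the comparisons of mice at 0 h. They were tested here only because the pools were included, so the size of their changes is uncertain. No gene of these lists was called at 96 h.

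Genotype was compared in the pools of 12 to 96 h with time as a block, so that the 5 times served as replicates and the p-values measure the spread between times. None of the 10 genes was called in LKO by edgeR, where 0.579% of 12782 genes were called. An unadjusted p-value under 0.05 was found for 4 of 10 against 17.9% of all genes, each lower in the libraries labeled LKO, and DESeq2 called 1, Socs3. LKO pools were below the control pool for 7, 5, 6, 8 and 5 of the 10 genes at 12, 24, 48, 72 and 96 h. Over all genes, the median LKO minus control difference was -0.029 to 0.019 (log2) at these times. Genes at large thus lay about equally often on either side, and the counts of members were not tested.

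Socs3 showed the widest divergence. The LKO pool minus the control pool was -0.32 at 12 h and 0.23 at 24 h, within the SD of 0.72 between mice at 0 h (log2), and then -2.27, -2.57 and -1.76 at 48, 72 and 96 h. The difference over all 5 times was -1.33 ± 0.39 (edgeR, adjusted p = 0.129), and -0.65 (adjusted p = 0.879) without the time block. DESeq2 called it (-1.36, adjusted p = 0.00207), as did edgeR when every gene with at least 1 count was kept (-1.32, adjusted p = 0.0366), and leaving out each time in turn gave -1.73 (without 24 h) to -1.0018 (without 72 h). At 0 h, the LKO difference was -0.63 ± 0.39 (adjusted p = 0.999), and the difference after APAP was not shown to exceed it (-0.68 ± 0.62, adjusted p = 0.743).

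Relb, Tnfaip3 and Nfkbiz were the other 3. Relb differed by -1.07, -0.04, -1.93, -1.48 and 0.06 from 12 to 96 h, on counts of 60, 51, 112, 47 and 36 in the control pools and 31, 58, 25, 22 and 49 in the LKO pools. Its difference over the times was -0.93 ± 0.36 (edgeR, adjusted p = 0.225). Tnfaip3 (-0.54 ± 0.24, adjusted p = 0.274) was lower in LKO at 4 of 5 times, with the widest difference at 48 h (-1.25). Nfkbiz (-0.43 ± 0.17, adjusted p = 0.227) was likewise lower at 4 of 5 times, with the widest difference at 24 h (-0.80).

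The remaining 6 genes had smaller differences over the times. Il1r1 was at -0.37 ± 0.17 (adjusted p = 0.298) and Il6ra at 0.34 ± 0.15 (adjusted p = 0.282), the only member with the LKO pool above the control pool at every time, as for 8.47% of all genes. The 95% intervals, from the SE, spanned zero for Stat3 (-0.38 to 0.21), Nfkbia (-0.29 to 0.23), Icam1 (-0.52 to 0.38) and Tnfaip2 (-0.21 to 0.57). Icam1 changed order, with LKO above control at 12 h (0.68) and below it at 72 h (-0.76).

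**Figure D3:**
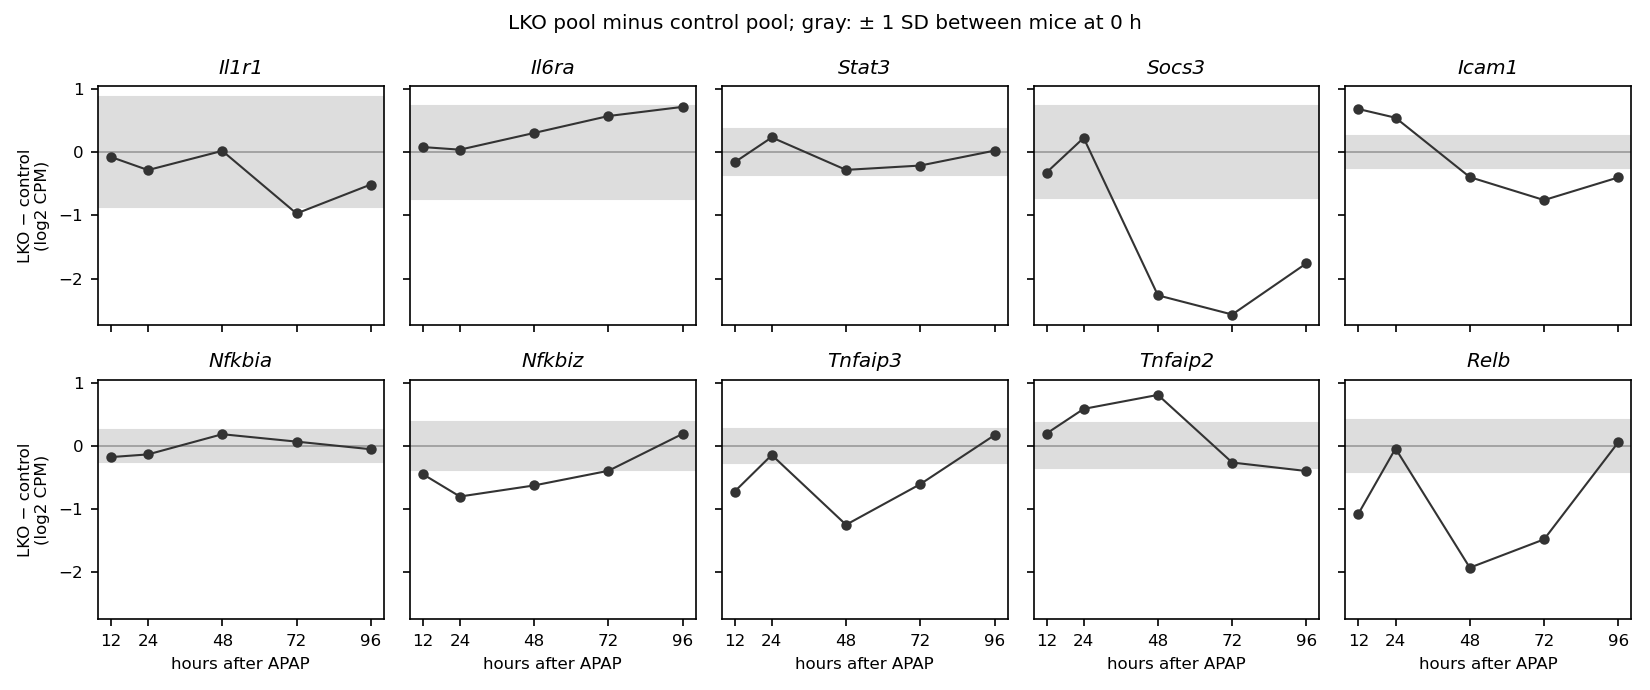
Level in the LKO pool minus that in the control pool (log2 CPM) against hours after APAP, with the gray band at ± 1 SD between mice at 0 h. There is 1 pool per genotype and time, so points have no error of their own. Socs3 left the band at 48 h (-2.27), 72 h (-2.57) and 96 h (-1.76), Icam1 at all 5 times, Nfkbiz at 4, Tnfaip2, Tnfaip3 and Relb at 3, Il1r1 at 1, and Nfkbia, Il6ra and Stat3 at none.

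The neutrophil markers also differed between the pools, in a direction that changed with time. Their sum was 16.8 CPM in the control pool and 17.4 CPM in the LKO pool at 12 h and 14.0 and 30.4 CPM at 24 h. It was 32.0 CPM in the control pool and 9.62 CPM in the LKO pool at 48 h, 26.4 and 8.42 CPM at 72 h, and 9.05 and 2.49 CPM at 96 h, with 1 marker at 0 in some pools. The 3 later times, with lower sums in LKO, are those of the wide Socs3 difference, whereas Relb, Tnfaip3 and Nfkbiz were not lower in LKO at 96 h. The macrophage markers summed to 212 (control) and 284 (LKO) CPM at 48 h and 596 and 601 CPM at 72 h. Cholangiocyte markers (4) summed to 136 CPM in the control pool and 22.7 CPM in the LKO pool at 12 h, and lymphocyte markers (6) to 6.62 to 21.3 CPM over all pools. The part of these cells in the genotype differences was not tested. None of the genes of the 6 other pathway lists was called in LKO pools.

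Before APAP, the LKO and control livers were compared with 4 mice each. None of the 10 genes was called in LKO at 0 h, as for 0% of 12426 genes, 1 had an unadjusted p-value under 0.05 against 2.83% of all genes, and DESeq2 called none of the 10. That gene was Tnfaip2, with control mice from 6.08 to 10.4 CPM and LKO mice from 10.7 to 20.7 CPM, which did not overlap (1.83% of all genes did not). The difference was 0.96 ± 0.23 (edgeR, adjusted p = 0.999). The LKO mouse with the highest Tnfaip2 level, replicate 1, also had the highest sum of macrophage markers (345 CPM against 144 to 182 CPM in the other LKO mice). The other mice did not follow this order. LKO replicate 4 had the lowest LKO level of Tnfaip2 (10.7 CPM) at a sum of 182 CPM. Control replicate 3 had Tnfaip2 at 7.33 CPM and a sum of 235 CPM. The part of macrophages in the Tnfaip2 difference was not tested. When the LKO difference after APAP was tested against that at 0 h, 0 of the 10 genes were called by edgeR (0% of 13328 genes) and by DESeq2. An unadjusted p-value under 0.05 was found for 2 of them against 9.64% of all genes, Tnfaip2 (-0.77 ± 0.32, adjusted p = 0.481) and Tnfaip3 (-0.72 ± 0.33, adjusted p = 0.512). At 0 h, 7 of the 10 genes had lower estimates in LKO mice, from -0.12 (Nfkbia) to -0.63 (Socs3), with overlap between the genotypes. The median estimate over all genes was -0.0012, so genes at large lay about equally often on either side.

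In HKO mice, deletion in adult hepatocytes was compared with the null virus. None of the 10 genes was called in HKO (0.96% of 12397 genes were), 2 had an unadjusted p-value under 0.05 against 12.9% of all genes, and DESeq2 called none of the 10. The 2 were Tnfaip2, at 11.0, 9.14 and 13.5 CPM in controls and 18.7, 11.7 and 21.6 CPM in HKO (0.62 ± 0.24, edgeR, adjusted p = 0.308), and Il6ra, at 119, 139.6 and 90.6 CPM in controls and 95.8, 76.5 and 77.8 CPM in HKO (-0.48 ± 0.16, adjusted p = 0.238). All 10 genes overlapped between the groups, whereas 18% of all genes did not.

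**Figure D4:**
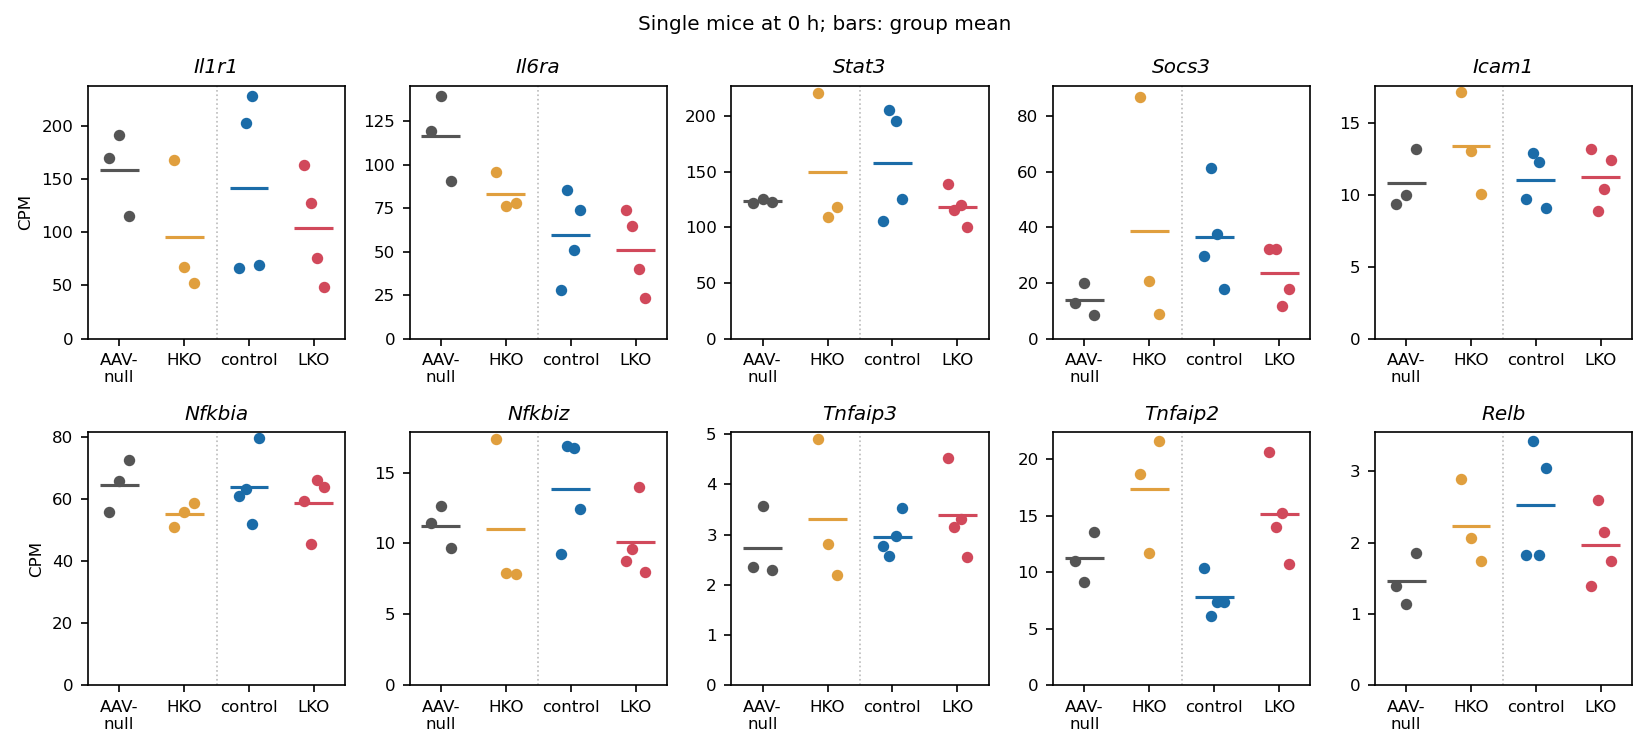
Level (CPM) of each gene in the 14 single mice at 0 h, by group, with a bar at the group mean and a dotted line between the HKO cohort (3 and 3 mice) and the LKO cohort (4 and 4 mice). For Socs3 the highest point is HKO replicate 1 at 87.1 CPM, and for Tnfaip2 the LKO mice (10.7 to 20.7 CPM) lie above the control mice (6.08 to 10.4 CPM).

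A single HKO mouse, replicate 1, stood apart in several members. Socs3 was at 87.1 CPM in this mouse against 20.8 and 8.68 CPM in the other HKO mice and 12.9, 20.1 and 8.54 CPM in controls. Stat3 was at 221 CPM in it, against 109.6 and 118 CPM in the other HKO mice and 122, 126 and 123 CPM in controls. Il1r1 was at 168 CPM in it, against 67.0 and 51.7 CPM in the other HKO mice and 169, 191 and 115 CPM in controls. With all 3 HKO mice, the differences were 1.495 ± 0.693 for Socs3 (edgeR, adjusted p = 0.408), 0.28 ± 0.23 for Stat3 and -0.73 ± 0.38 for Il1r1 (adjusted p = 0.491). Without this mouse, Socs3 was at 0.10 ± 0.39 (adjusted p = 0.948), Stat3 at -0.12 ± 0.10 (adjusted p = 0.675), and Il1r1 was called lower (-1.42 ± 0.21, adjusted p = 0.0096), while 297 genes were called in place of 119. The same mouse had the highest sum of neutrophil markers of the cohort, 11.1 CPM against 0.557 to 4.19 CPM, and lower stellate cell markers (107 CPM) than the other HKO mice (245 and 242 CPM).

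The pathway lists held 1 called gene in HKO, Irf1 (0.79 ± 0.14, edgeR, adjusted p = 0.0348), an interferon regulatory factor among the NF-κB targets, singled out here after its value was seen. Of all genes, 0.96% were called. All 12 STAT3 targets had positive estimates in HKO, at a median of 0.69 against 0.0116 over all genes, with none called. Without HKO replicate 1, 9 of 12 were positive at a median of 0.32 against 0.0067 over all genes, and Myc was called higher. In the other lists Irf1 remained called, and Socs2 and Cish were called higher and the TNF receptor gene Tnfrsf1b lower. These calls stand against 297 of 12613 genes called without that mouse. The cohorts also differ by virus and by age at deletion. Between them, the LKO and HKO effects at 0 h differed for Socs3 by -2.13 ± 0.87 (edgeR, adjusted p = 0.9998) and for Tnfaip2 by 0.33 ± 0.36, with 0% of 12945 genes called. Without HKO replicate 1, the Socs3 difference was -0.73. By edgeR 0 of the 10 genes were called in this comparison, 1, Socs3, had an unadjusted p-value under 0.05 against 4.47% of all genes, and DESeq2 called none of them.

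**Figure D5:**
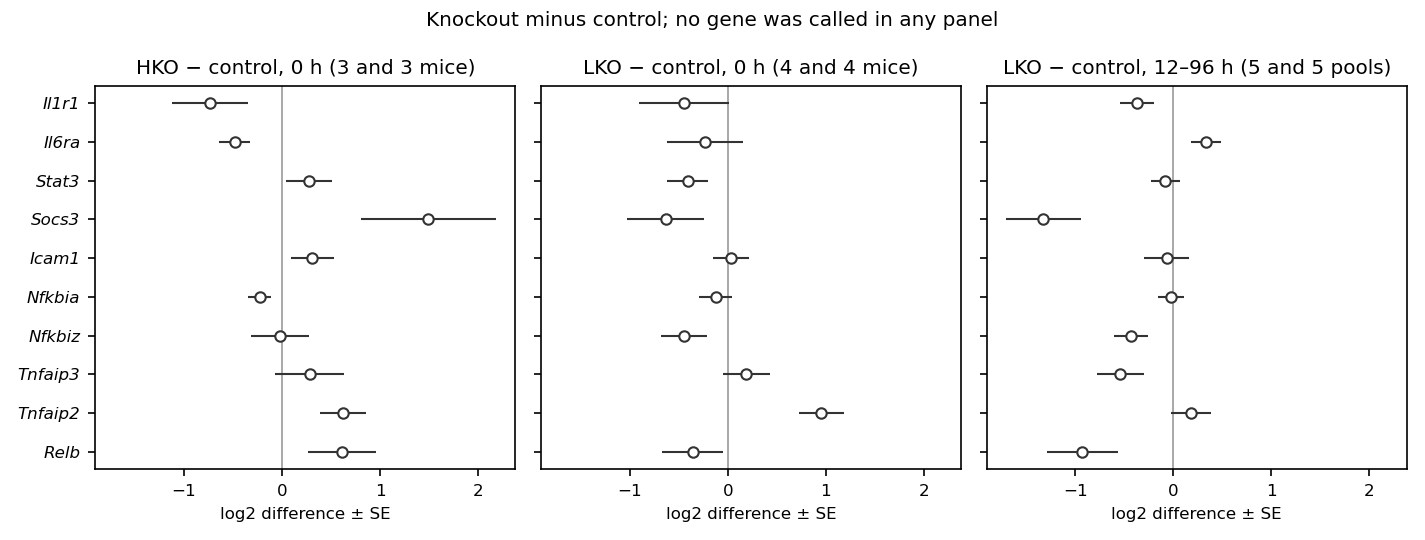
Knockout minus control of each gene (log2, bars of 1 SE) in HKO mice at 0 h, LKO mice at 0 h and LKO pools of 12 to 96 h. No gene was called in any panel in the main edgeR fits, whereas DESeq2 called Socs3 in LKO pools. Socs3 lies at 1.495 in HKO mice, -0.63 in LKO mice and -1.33 in LKO pools, and Tnfaip2 at 0.62, 0.96 and 0.18.

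The courses were last compared with those of all other genes by the root-mean-square difference of log2 changes from 0 h over the 10 pools. The nearest gene lay at 0.11 for Nfkbia (Plod1), 0.18 for Il6ra (Klf9), 0.21 for Tnfaip3 (Slc6a8), 0.23 for Relb (Syde1) and 0.24 for Stat3 (Actn4). For Icam1 it was Csf1 and for Il1r1 Cebpd, a STAT3 target of the list above, both at 0.26, and for Tnfaip2 it was Cks2 at 0.27. The nearest gene of Socs3, Slc6a9, lay farthest, at 0.64. The size of a gene's own changes enters this distance, so the distances do not rank closeness alone. That size (root mean square, log2) was 1.31 for Socs3, 1.22 for Tnfaip3 and 0.35 for Nfkbia. Among the members, Stat3 and Il1r1 were nearest to each other (0.37).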

How the data were processed

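Poly(A) RNA of whole liver was sequenced in 24 libraries. Per the labels and the paper's methods, the authors trimmed reads, mapped them with STAR to mm10 and then deposited raw counts for 24411 genes, named by symbol (annotation version not given in the sources used here). The deposited column of counts that disregards strand was used. The 4 entries naming no gene were left out: reads on no feature (7.29% to 14.7%), ambiguous (1.51% to 2.01%), unmapped (2.63% to 20.6%) and multimapping (4.69% to 8.06%). Uniquely mapped reads alone are counted.

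Differences were tested by edgeR 4.0.16 under R 4.3.3 (quasi-likelihood F-test, filterByExpr, TMM) and Benjamini-Hochberg adjustment over all genes tested. A gene was called when it reached a 1.5-fold change with an adjusted p-value under 0.05. The authors used DESeq2, which was run as an alternative (1.42.0). CPM and RPKM were computed here, RPKM with exon lengths of GENCODE vM21, to which 95.76% of symbols matched. Log2 levels of single libraries carry a prior count of 2. Tests were tried on simulated counts first. All p-values are 2-sided.

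Groups follow the labels, with control for libraries labeled WT, LKO for KO, HKO for CRE and the AAV-null control for NULL. The labels give 4 mice per genotype at 0 h, and 3 libraries each were analyzed in the HKO cohort. Virus was given intravenously per the series' design text and intraperitoneally per the paper's methods. The members, pathway lists and markers were chosen with earlier results of these data known. All 10 members are named, and of each list the called genes, at most 4 per comparison with the largest changes. The nearest gene is the one with the smallest root-mean-square difference of log2 changes. Alternatives were DESeq2, RLE or library-size scaling, other filters on low counts, calls without a fold limit, the first stranded column, other blocks and fits, a smaller prior count (0.5), and leaving out each library or time.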

Additional observations from a re-analysis of the deposited data

How the results depend on the processing

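Of 1784 log2 values of single members under all alternatives, 1694 kept their direction and their side of the threshold, 37 lost a call, 16 gained one and 37 changed sign, and all 70 values at 12 h outside the omission of libraries were among those kept. The cause of the changes was not tested, except that omitting a pool leaves 1 library at that time, assumed to vary like the others.

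The number of members called was 0 in HKO at 0 h and 0 to 1 when single mice were left out (1 without HKO replicate 1). In LKO at 12 to 96 h it was 0, and 1 with DESeq2 and 1 with every gene of at least 1 count. Leaving out single libraries gave 3 to 6 members in place of 6 at 12 h, 1 to 5 in place of 4 at 24 h, 0 to 3 in place of 3 at 48 h (1 without control replicate 1 or 4) and 0 to 3 in place of 2 at 72 h (1 without control replicate 4, LKO replicate 2 or LKO replicate 3). DESeq2 called 4 members at 72 h and 1 at 96 h, and the first stranded column gave 1 at 72 h.

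With scaling by library size alone, signs turned for Nfkbiz in HKO (0.0504), Nfkbia in LKO at 0 h (0.0046), Nfkbia (0.0606), Icam1 (0.016) and Stat3 (0.0048) in LKO pools, and Stat3 at 72 h (0.00096). This scaling moved the median LKO minus control difference over all genes by up to 0.22 (96 h) and the median change from 0 h by up to 0.19 (48 h). With the first stranded column, signs turned for Tnfaip3 (-0.011) and Relb (0.15) in LKO at 0 h and Nfkbia in LKO pools (0.0309), and LKO minus control was -1.41 for Relb at 48 h and -0.94 for Icam1 at 96 h. With libraries left out, signs turned for Nfkbiz (-0.51 to 0.17), Tnfaip3 (-0.12 to 0.51) and Stat3 (-0.12 to 0.46) in HKO, for Icam1 (-0.0498 to 0.13) and Il6ra (-0.47 to 0.0054) in LKO at 0 h, and for Nfkbia (-0.0688 to 0.0216) and Icam1 (-0.25 to 0.12) in LKO pools. They also turned for Socs3 at 24 h (-0.0039 to 1.37), Relb (-0.41 to 1.10) and Il1r1 (-0.0091 to 0.46) at 48 h, Nfkbiz (-0.0591 to 0.11) and Relb (-0.81 to 0.20) at 72 h, and Nfkbiz (-0.66 to 0.0399), Tnfaip3 (-0.32 to 0.13) and Relb (-0.21 to 0.61) at 96 h. None of these values was called. Without the time block, the Socs3 difference in LKO pools was -0.65 (adjusted p = 0.879).

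Mice with the same replicate number did not deviate together (correlations 0.198, -0.031 and 0.105 in the HKO cohort and -0.346, -0.164, 0.077 and 0.196 in the LKO cohort), so the numbers do not pair them. With a replicate block, 0 members were called in each comparison at 0 h, and 263 genes in HKO.

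Over all genes, the count of calls depended on the tool and filter. In HKO it was 119, and 331 with DESeq2 and 255 with every gene of at least 1 count. In LKO pools it was 74, and 606 with DESeq2, 337 with every gene of at least 1 count, 34 with at least 10 counts in every library, 42 by library size, 314 in the fit of 18 libraries and 0 without the time block. At 96 h it was 62, and 342 with DESeq2, 41 by library size and 33 with the stranded column. DESeq2 called 3 genes in LKO at 0 h, 39 for the change of the LKO difference after APAP and 21 for the difference of the 0 h effects, and with every gene of at least 1 count the last 2 of these gave 2 each, all in place of 0. Single omissions gave 54 to 297 genes in HKO, 9 to 177 in LKO pools, and 2079 to 4354, 1143 to 3608, 474 to 2410, 474 to 2376 and 11 to 110 at 12, 24, 48, 72 and 96 h.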
